A study of Homo sapiens and Mus musculus with 15 samples.

Results

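NRF2 target genes and peroxide defence genes were followed as 10 named transcripts: NFE2L2, which encodes the transcription factor NRF2, and NQO1, GCLC, GCLM, TXNRD1, SRXN1, PRDX6, GPX3, GPX4 and SOD2. The genes are listed by name for their function, with earlier results of these data known, and all 10 were found by symbol among the 61071 rows of the ARPE-19 table, the 56832 rows of the mouse table and the 32285 genes of the single-cell matrices. The study holds 15 samples from the retinal pigment epithelium (RPE) in 3 experiments. ARPE-19, a human RPE cell line, was harvested after 5 days as 3 libraries of control-vector cells on plastic, 3 of control-vector cells on a 1.5 kPa substrate and 3 of cells overexpressing YAP-HA (the coactivator YAP with an HA tag) on 1.5 kPa, so the YAP-HA cells differ from plastic in both substrate and vector. Bulk RNA from the eye cup, after removal of the retina, came from old C57BL/6J mice, 2 libraries without and 2 with TRULI, which blocks LATS, the kinase that restrains YAP. Single cells came from papain-dissociated RPE of C57BL/6J mice aged 3 and 24 months, 1 library per age. Nothing in the labels says that libraries of a group came from separate cultures or that a library held 1 animal, so p-values measure the spread between these libraries only. One label of the 3-month library reads as old, and its title and age were followed.

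NRF2 is held low in unstressed cells by KEAP1, which presents it for degradation; when KEAP1 is modified by electrophiles or oxidants, NRF2 enters the nucleus, pairs with small MAF proteins and binds antioxidant response elements. Its targets make glutathione, reduce quinones and keep thioredoxin and peroxiredoxins in their active forms. The RPE lies under bright light beside a rich blood supply and ingests photoreceptor membranes, and it is known for a high oxidative load.

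The core of the antioxidant response element was searched in the promoters of the members to show where such letters lie near a start site. The letters TGACNNNGC were looked for on both strands in RefSeq promoters of GRCh38.p14, from 250 bases before to 50 bases after each start. They were found in 4687 of 35116 promoters (13.3%) and in 3 of the 16 promoters listed for 9 members, namely those of GCLM and TXNRD1. PRDX6 had no entry. The windows that lie wholly before a start are printed 5′ to 3′ along the gene, with the matching letters in capitals.
GCLM, chr1:93909436-93909484, minus strand, match 34 to 26 bases before the start and read on the opposite strand: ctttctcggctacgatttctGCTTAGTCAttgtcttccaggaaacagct
TXNRD1, first start, chr12:104215660-104215708, plus strand, match 99 to 91 bases before the start: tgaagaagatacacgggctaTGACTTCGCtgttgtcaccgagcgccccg
TXNRD1, second start, chr12:104286910-104286958, plus strand, match 102 to 94 bases before the start and read on the opposite strand: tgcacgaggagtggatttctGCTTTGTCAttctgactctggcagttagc
A match is a description of letters and not of a bound site. The other 7 members with a promoter had no match in this window, which says nothing of elements outside it.

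The labels of the ARPE-19 libraries were first checked on the gene that was overexpressed. YAP1 was at 115 to 126 TPM (a transcript's share of the library, scaled by its length) on plastic, 55.9 to 77.3 on 1.5 kPa and 2209 to 2469 with YAP-HA. CCN2 and CCN1, known targets of YAP, fell on 1.5 kPa, from 468 to 151 and from 1166 to 830.5 TPM, and were higher with YAP-HA than without it on that substrate, at 180.3 and 963 TPM. Of 6 RPE markers, RPE65 and TTR were at 0 in all 9 libraries and only MITF passed 1 TPM in every one, so that the line lacked the defining transcripts of mature RPE. The summed level of 6 mural cell markers, contractile genes included, was 1307 to 1349 TPM on plastic, 425 to 438 on 1.5 kPa and 309 to 359 with YAP-HA. Most of it was TAGLN, at 1241 to 1277, 381 to 394 and 260 to 310 TPM in these groups. ACTA2 and RGS5 were also lower on 1.5 kPa than on plastic, while ABCC9 was higher, at 1.61 to 2.09 against 1.25 to 1.33 TPM. The part of these genes in the results was not tested.

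The first comparison asked how control cells on the soft substrate differed from those on plastic. NQO1, SRXN1, GPX3, GCLM, GPX4, PRDX6 and SOD2 were higher on 1.5 kPa and TXNRD1 was lower, while NFE2L2 and GCLC did not pass the test (limma on log2(TPM + 1), adjusted p under 0.05). This is 7 higher and 1 lower of 10 members, against 50.5% of all 14606 genes tested being called, 22.6% higher and 27.9% lower. The median log2 fold change was 0.37 over the members and -0.04 over all genes tested. The second comparison held the substrate fixed and asked what YAP-HA changed. There TXNRD1 was higher and NQO1, SRXN1, GPX3, GPX4 and SOD2 were lower, 1 and 5 of 10 members, against 48.4% of all genes called, 24.5% higher and 23.9% lower. The third comparison set YAP-HA cells on 1.5 kPa against control cells on plastic and called 3 members higher (GCLM, TXNRD1, SRXN1) and 3 lower (NQO1, GPX3, SOD2), against 34.4% of all genes, 14.2% higher and 20.2% lower. The 3 comparisons share libraries, so their values are given side by side and no overlap is read from them.

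**Figure D1:**
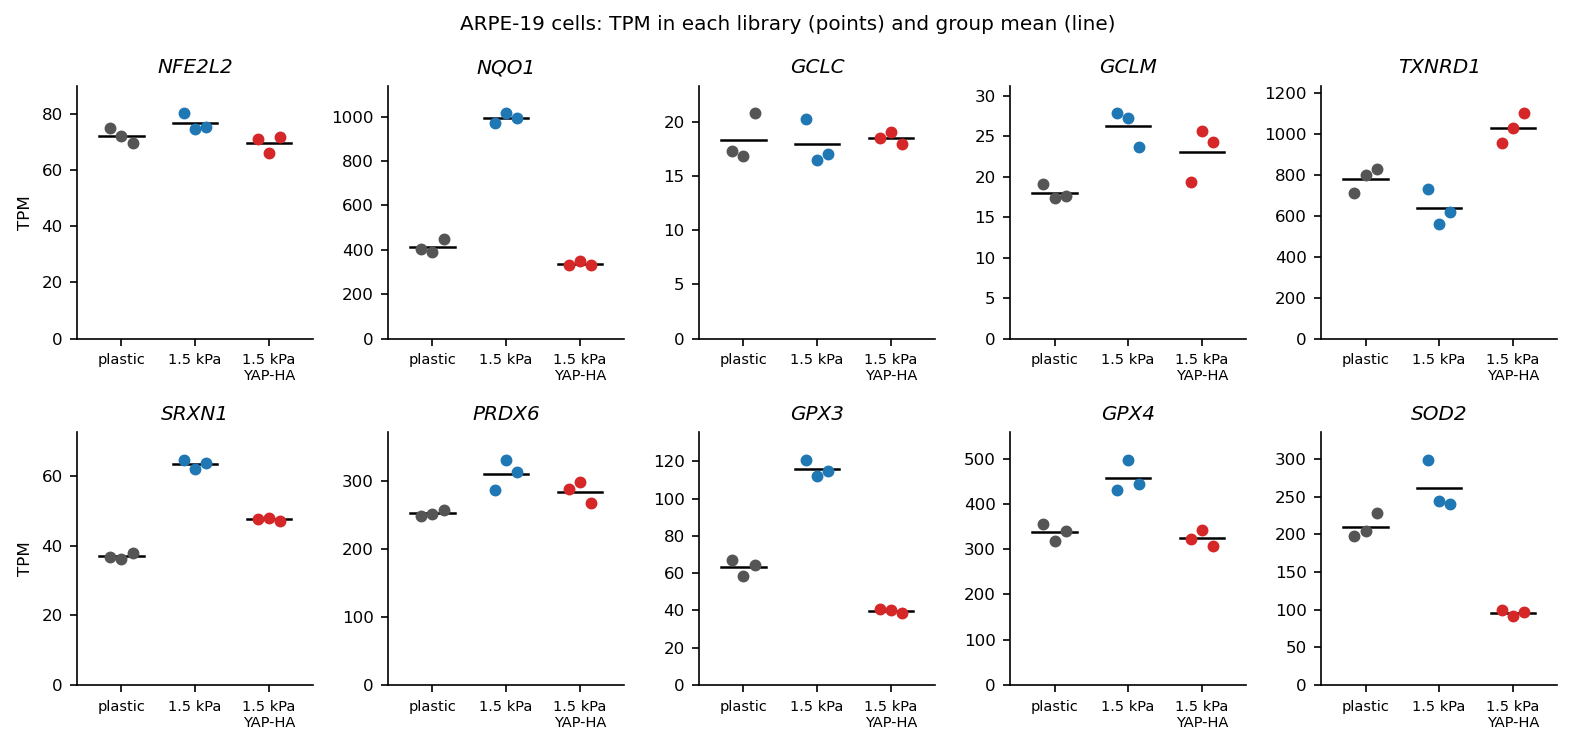
TPM of the 10 members in the 9 ARPE-19 libraries, by group, with a line at each group mean and each vertical axis starting at 0. NQO1 and GPX3 are highest in all 3 libraries on 1.5 kPa and lowest in all 3 with YAP-HA, whereas TXNRD1 is highest with YAP-HA.

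NFE2L2 itself moved little. It was at 74.8, 72.1 and 69.5 TPM on plastic, 80.3, 74.5 and 75.2 on 1.5 kPa and 70.9, 66.0 and 71.8 with YAP-HA. The lowest library on 1.5 kPa lay below the highest on plastic, and the groups with and without YAP-HA did not overlap. The log2 fold change was 0.09 ± 0.06 (SE, n = 3 each) on 1.5 kPa against plastic, with an adjusted p of 0.257, and -0.14 ± 0.06 with YAP-HA against 1.5 kPa, with an adjusted p of 0.0827. Its 95% interval in that comparison ran from -0.27 to -0.00392.

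GCLC and GCLM encode the catalytic and modifier subunits of glutamate-cysteine ligase, the rate-limiting step of glutathione synthesis. GCLC was at 17.3, 16.8 and 20.8 TPM on plastic, 20.2, 16.5 and 17.0 on 1.5 kPa and 18.5, 19.1 and 17.9 with YAP-HA. The 3 groups overlapped, and the largest of its 3 log2 fold changes was 0.05 ± 0.10 with an adjusted p of 0.700. GCLM was at 19.0, 17.3 and 17.6 TPM on plastic, 27.9, 27.2 and 23.7 on 1.5 kPa and 19.4, 25.6 and 24.2 with YAP-HA. Both groups on the soft substrate lay above plastic in every library and overlapped each other. GCLM was higher by 0.52 ± 0.11 on 1.5 kPa than on plastic (adjusted p of 0.00289). It was higher by 0.33 ± 0.11 in YAP-HA cells than on plastic (adjusted p of 0.0351), a call lost when plastic library 2 or 3 or YAP-HA library 2 or 3 was left out, with an adjusted p of 0.0921 to 0.130. With against without YAP-HA, its log2 fold change was -0.19, with an interval from -0.42 to 0.05.

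NQO1, a quinone reductase and widely used readout of NRF2 activity, showed the largest changes among the members in both comparisons with the 1.5 kPa control cells. It was at 404, 391 and 447 TPM on plastic, 969, 1016 and 995 on 1.5 kPa and 331, 347 and 329 with YAP-HA. The 3 groups did not overlap, with the soft substrate highest and YAP-HA lowest. NQO1 was 2.40 times higher on 1.5 kPa than on plastic, a log2 fold change of 1.26 ± 0.06 with an adjusted p of 5.66e-07. With YAP-HA on the same substrate it fell by 1.56 ± 0.06 on the log2 scale (adjusted p of 2.43e-08), to a level 0.30 below that on plastic (log2 fold change of -0.30 ± 0.06, adjusted p of 0.00337).

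TXNRD1, the cytosolic thioredoxin reductase, and SRXN1, the sulfiredoxin that reactivates over-oxidised peroxiredoxins, took different courses. TXNRD1 was at 709.7, 797 and 827 TPM on plastic, 729.5, 561 and 619 on 1.5 kPa and 955, 1026 and 1101 with YAP-HA. Its 3 YAP-HA libraries lay above the other 6, which overlapped. It was higher by 0.70 ± 0.10 with YAP-HA than without on 1.5 kPa (adjusted p of 0.000275) and by 0.40 ± 0.10 than on plastic (adjusted p of 0.0105). The decrease on 1.5 kPa, -0.29 ± 0.10 with an adjusted p of 0.0296, was lost when plastic library 2 or 3 or 1.5 kPa library 2 or 3 was left out, at 0.0821 to 0.110.

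SRXN1 was at 36.9, 36.1 and 37.9 TPM on plastic, 64.8, 62.03 and 63.8 on 1.5 kPa and 47.7, 48.1 and 47.3 with YAP-HA. The groups did not overlap, and the YAP-HA cells lay between the others. Its log2 fold change was 0.77 ± 0.05 on 1.5 kPa against plastic (adjusted p of 6.82e-06), -0.41 ± 0.05 with against without YAP-HA (adjusted p of 0.000175) and 0.36 ± 0.05 with YAP-HA against plastic (adjusted p of 0.000664).

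**Figure D2:**
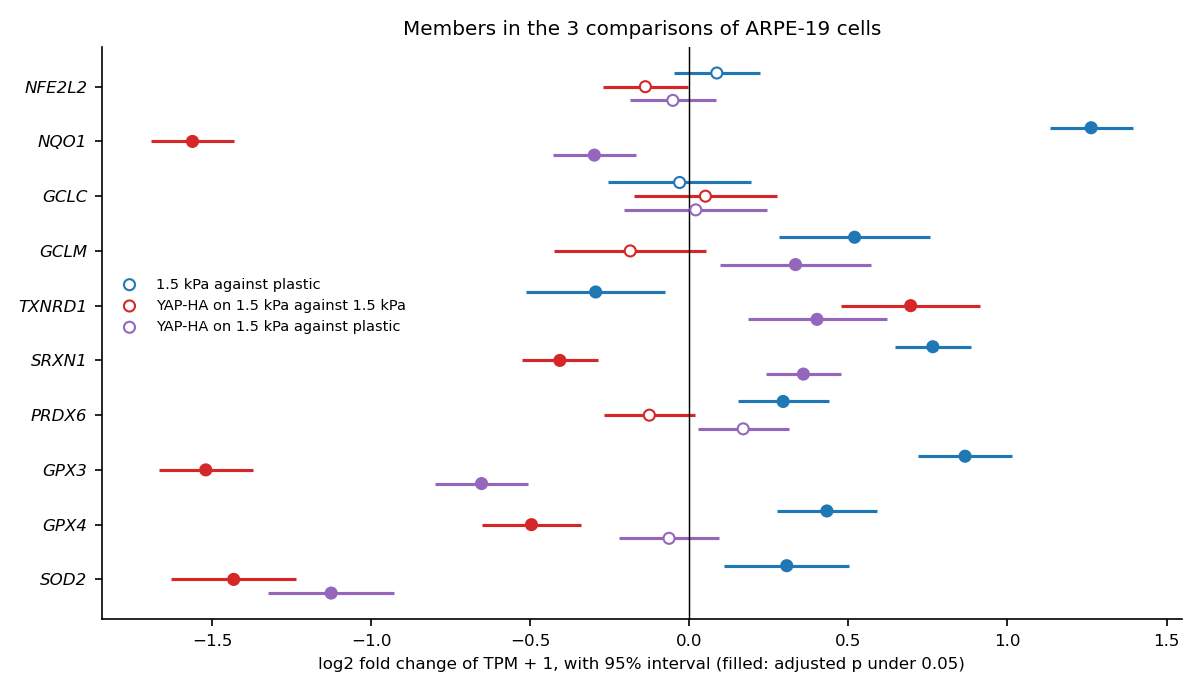
Log2 fold changes of TPM + 1 for the 10 members in the 3 ARPE-19 comparisons, with 95% intervals from limma, where filled points have an adjusted p under 0.05. On 1.5 kPa against plastic the points run from -0.29 for TXNRD1 to 1.26 for NQO1, and with against without YAP-HA from -1.56 for NQO1 to 0.70 for TXNRD1.

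Among the peroxidases, GPX3 had the widest range. This secreted selenoenzyme reduces peroxides with glutathione and was at 67.2, 58.3 and 64.2 TPM on plastic, 121, 112 and 115 on 1.5 kPa and 40.7, 40.1 and 38.5 with YAP-HA. The 3 groups were apart, in the order seen for NQO1. GPX3 rose by 0.87 ± 0.07 on the log2 scale on 1.5 kPa (adjusted p of 1.10e-05), fell by 1.52 ± 0.07 with YAP-HA (adjusted p of 6.80e-08) and was 0.65 ± 0.07 lower with YAP-HA than on plastic (log2 fold change of -0.65, adjusted p of 5.69e-05).

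GPX4, the selenoenzyme that reduces lipid hydroperoxides within membranes and guards against ferroptosis, was at 356, 318 and 341 TPM on plastic, 431, 498 and 443 on 1.5 kPa and 322, 341 and 308 with YAP-HA. Only the soft-substrate control cells stood apart. The log2 fold change was 0.43 ± 0.07 on 1.5 kPa (adjusted p of 0.00081), -0.50 ± 0.07 with against without YAP-HA (adjusted p of 0.000286) and -0.06 with YAP-HA against plastic, with an interval from -0.22 to 0.09.

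PRDX6, a peroxiredoxin that reduces phospholipid peroxides with glutathione, was at 249, 251 and 257 TPM on plastic, 287, 332 and 313 on 1.5 kPa and 288, 298 and 267 with YAP-HA. Both soft-substrate groups lay above plastic and overlapped each other. It rose by 0.29 ± 0.06 on 1.5 kPa (adjusted p of 0.00389), and the other comparisons missed the threshold, at 0.133 with against without YAP-HA (log2 fold change of -0.13) and 0.0665 with YAP-HA against plastic (0.17). Without library 1 on 1.5 kPa both passed, at 0.0262 and 0.0278, and the latter also passed without YAP-HA library 3, at 0.0455.

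SOD2, the mitochondrial superoxide dismutase and a gene also known to answer to NF-kB, was at 199, 205 and 228 TPM on plastic, 299.5, 244 and 241 on 1.5 kPa and 99.2, 91.7 and 96.6 with YAP-HA. The YAP-HA libraries lay far below all others. SOD2 fell by 1.43 ± 0.09 on the log2 scale with YAP-HA on 1.5 kPa (adjusted p of 9.43e-07) and was lower by 1.13 ± 0.09 than on plastic (log2 fold change of -1.13, adjusted p of 9.84e-06). On 1.5 kPa against plastic it was higher by 0.31 ± 0.09 (adjusted p of 0.0157), which became 0.0541 without plastic library 1.

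Genes around the members were read from 5 lists, chosen with earlier results of these data known, so that their counts are a description, to be set beside the shares of all genes called. Those were 22.6% higher and 27.9% lower on 1.5 kPa against plastic, 24.5% and 23.9% with against without YAP-HA, and 14.2% and 20.2% with YAP-HA against plastic. Of 11 NRF2 regulators, 4 rose and 3 fell on 1.5 kPa against plastic, with a median log2 fold change of 0.08, and their 7 calls are near the 50.5% of all genes. GSK3B, a kinase that marks NRF2 for degradation, fell from 50.2 to 24.3 TPM, and BACH1, a repressor at the same elements, from 20.8 to 11.7. SQSTM1, the autophagy adaptor p62 that binds KEAP1, rose from 219 to 440.5 TPM. With against without YAP-HA, 2 regulators were higher and 6 lower (median -0.36). SQSTM1 was lower, at 189.5 TPM, as was MAFG, a small MAF partner of NRF2, which went from 18.4 to 12.7, and GSK3B was higher, at 34.6 TPM. Against plastic, 0 were higher and 7 lower in YAP-HA cells (median -0.29), among them GSK3B, MAFG and NFE2L1, a relative of NRF2, with log2 fold changes of -0.52, -0.42 and -0.39.

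Other NRF2 targets numbered 22, of which 19 were expressed highly enough to be tested. On 1.5 kPa, 12 rose (22.6% of all genes did) and 2 fell (27.9% did), with a median log2 fold change of 0.25. The heme oxygenase HMOX1 rose from 28.9 ± 2.2 to 124 ± 8.04 TPM (SD, n = 3), the ferritin heavy chain FTH1 from 6806 to 14479, and OSGIN1 from 6.93 to 14.9. Ferritin has many processed pseudogenes, and how reads were shared with them is not given in the sources used here. With YAP-HA on 1.5 kPa, 0 were higher and 13 lower (median -0.65), against 24.5% and 23.9% of all genes: HMOX1 was at 14.1 ± 1.21 TPM, FTH1 at 4042, and the aldo-keto reductase AKR1C3 fell from 15.2 to 2.41. Against plastic, 0 were higher and 10 lower in YAP-HA cells (median -0.27), where 14.2% and 20.2% of all genes were. AKR1C3, TRIM16 and HMOX1 led, with log2 fold changes of -1.41, -1.03 and -0.99.

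Of 21 other peroxide and superoxide enzymes, 19 were tested and 12 rose on 1.5 kPa while 0 fell (median 0.23), against 22.6% and 27.9% of all genes. Thioredoxin (TXN) rose from 237 to 467 TPM and the glutaredoxins GLRX and GLRX2 from 32.8 to 50.8 and from 25.6 to 39.3. With against without YAP-HA, 2 were higher and 9 lower (median -0.20), against 24.5% and 23.9%. Extracellular superoxide dismutase (SOD3) fell from 7.09 to 3.69 TPM, the mitochondrial peroxiredoxin PRDX5 from 705.5 to 418.5 and GPX1 from 502.5 to 324. Against plastic, 5 were higher and 2 lower in YAP-HA cells (median 0.06), where 14.2% and 20.2% of all genes were. SOD3 was lower, at 3.69 against 8.41 TPM, while TXN and PRDX1 were higher by 0.46 and 0.36.

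The list of 7 genes of selenoprotein synthesis, which GPX3, GPX4 and TXNRD1 depend on, also holds SELENOP, a selenium carrier, and 6 of the 7 were tested. SEPHS2, which makes the selenium donor, and PSTK, a kinase of the selenocysteine pathway, rose on 1.5 kPa from 24.5 to 34.7 and from 7.20 to 10.2 TPM, and 0 fell (median 0.12). Of all genes, 22.6% rose and 27.9% fell there. With YAP-HA on 1.5 kPa, SEPHS2 alone was lower, at 27.5 TPM (median of the list -0.07), where 23.9% of all genes were lower. Against plastic 0 were called either way (median 0.09), where 34.4% of all genes were called.

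Of 7 genes of the NF-kB response, the other pathway known to drive SOD2, 5 rose and 0 fell on 1.5 kPa (median 0.43), and 6 were lower with YAP-HA on that substrate (median -1.49) and 7 lower than on plastic (median -0.84), with 0 higher in either. Of all genes 22.6% rose in the first of these comparisons, and 23.9% and 20.2% were lower in the others. The inhibitor of apoptosis BIRC3 rose from 50.4 to 119.8 TPM on 1.5 kPa and was at 19.0 with YAP-HA. TNFAIP3 and RELB rose from 14.4 to 24.3 and from 14.1 to 19.8 TPM. The adhesion molecule ICAM1 and the NF-kB inhibitor NFKBIA were at 27.1 and 94.4 TPM on 1.5 kPa and at 6.21 and 28.5 with YAP-HA.

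In the eye cups of old mice the comparison asked what TRULI changed. No member passed the test (limma, adjusted p under 0.05), against 8 of 15132 genes, or 0.0529%, called in all, 0.0198% higher and 0.0330% lower, and 2 members had an unadjusted p under 0.05. The members' median log2 fold change was -0.05, and that of all genes tested 0.04. Over all 15132 genes tested, 1810 had an unadjusted p under 0.05. With 2 libraries a group, intervals were wide, and that of Nqo1 would hold a difference of 0.67 on the log2 scale.

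**Figure D3:**
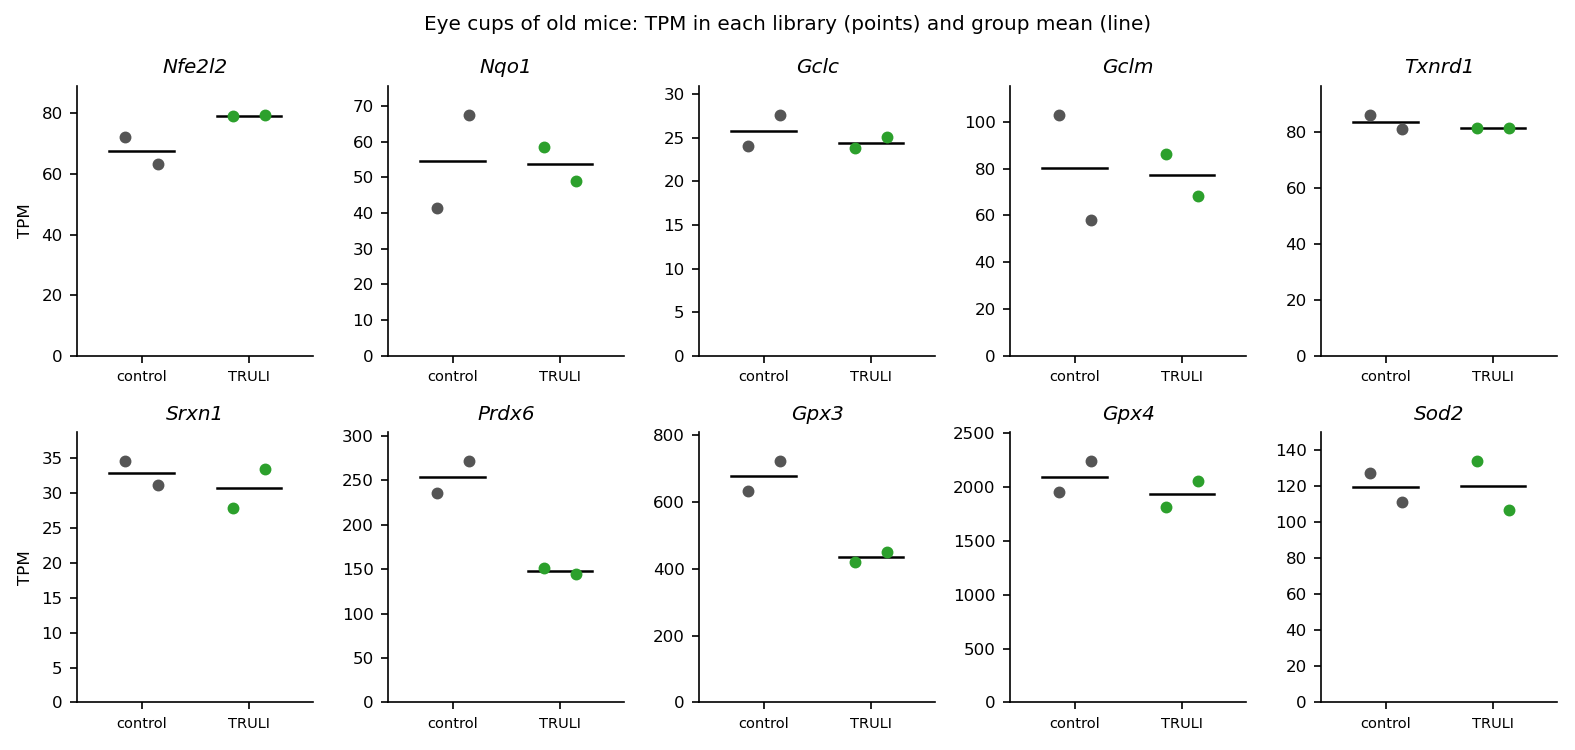
TPM of the 10 members in the 2 control and 2 TRULI libraries from eye cups of old mice, with a line at each group mean and each vertical axis starting at 0. Prdx6 and Gpx3 are lower in both TRULI libraries, Nfe2l2 is higher in both, and the other members overlap between the groups. The share of all genes without overlap was not taken, so no result is read from this.

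Prdx6 and Gpx3 had the largest differences. Prdx6 was at 235 and 271 TPM in control mice and 151 and 145 with TRULI, a log2 fold change of -0.77 ± 0.12 (SE, n = 2 each) with an adjusted p of 0.167. Gpx3 was at 632 and 722 TPM in control mice and 419 and 451 with TRULI, -0.63 ± 0.11 with an adjusted p of 0.196. Neither pair of groups overlapped. Over the alternatives run the adjusted p stayed between 0.145 and 0.725 for Prdx6 and between 0.158 and 0.725 for Gpx3. In bulk tissue, fewer cells of a type and less RNA per cell cannot be told apart. The 6 macrophage markers summed to 1429 to 1466 TPM in control mice and 683 to 881 with TRULI, the 6 T cell markers to 60.6 to 76.1 and 16.1 to 21.1, and the 6 neutrophil markers to 59.1 to 71.4 and 11.7 to 19.3, all lower with TRULI. Most of the macrophage sum was C1qa, C1qb and C1qc, with C1qa at 391 and 371 TPM in control mice and 146 and 203 with TRULI. Csf1r, Adgre1 and Mrc1 overlapped between the groups, as did the neutrophil markers Csf3r and Retnlg. Higher with TRULI were the sums of the 6 RPE markers (19607 to 19813 and 23039 to 23832), melanocyte markers (3352 to 3602 and 4569 to 4966) and mural cell markers (291 to 354 and 529 to 848). Most of the RPE sum was Ttr, at 14205 and 13516 TPM in control mice and 17594 and 18382 with TRULI. Mitf and Tyr were also higher in both TRULI libraries, while Rlbp1, Rpe65 and Trpm3 overlapped between the groups. Most of the melanocyte sum was Dct, at 2104 and 2219 TPM in control mice and 3190 and 2821 with TRULI. Sox10, from the same list, overlapped, at 90.8 and 85.5 TPM in control mice and 86.8 and 72.3 with TRULI. The sum of the 6 fibroblast markers overlapped, at 2016 to 2363 TPM in control mice and 2064 to 2701 with TRULI. Of these markers, Col1a1, Col1a2 and Col3a1 were higher in both TRULI libraries, Pdgfra was lower in both, and Dcn and Lum overlapped. The part of these marker levels in the 2 results was not tested.

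For the other 8 members the interval of the log2 fold change held 0. Nfe2l2 was at 72.0 and 63.4 TPM in control mice and 78.9 and 79.4 with TRULI, with no overlap, and its log2 fold change of 0.23 had an interval from -0.11 to 0.56. Nqo1 was at 41.4 and 67.4 TPM against 58.5 and 49.0, Gclm at 103 and 58.0 against 86.2 and 68.2, and their intervals ran from -0.63 to 0.67 and from -0.75 to 0.72. Gpx4, at 1954 and 2235 TPM against 1815 and 2049, had an interval from -0.40 to 0.17.
Gclc, Srxn1, Txnrd1 and Sod2 had log2 fold changes between -0.10 and 0.01. In the 5 lists 0 genes were called in either direction. At an unadjusted p under 0.05 there were 1 of 11 regulators, 3 of 17 other targets and 6 of 20 other enzymes. There were also 1 of 7 genes of selenoprotein synthesis and 2 of 7 NF-kB genes. Beside these stand 1810 of all 15132 genes tested. The medians of the 5 lists lay between -0.13 for selenoprotein synthesis and 0.08 for other NRF2 targets.

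The single-cell libraries placed the members in cell types. After filtering, 15667 cells of the 3-month library (median 4586 unique molecular identifiers, UMIs) and 15198 of the 24-month library (median 3699) were kept, and 300 of their barcodes occurred in both. RPE cells were those in which Mitf, Rlbp1, Rpe65, Trpm3, Ttr and Tyr held at least 4% of UMIs: 1886 at 3 months, with a median of 10783 UMIs, and 5419 at 24 months, with 3887. Rdh5 and Rgr, visual cycle genes that the rule did not use, were among the 10 genes most raised in them in both libraries, and no marker of another type was. Other cells were classed by 6 markers each, as fibroblast-like (8409 and 5178), endothelial-like (480 and 213), mural-like (357 and 271), melanocyte-like (1297 and 37), macrophage-like (244 and 367) and T cell-like (45 and 923). Levels are CPM, the UMIs of a gene scaled to a common total over those cells, with exact 95% Poisson intervals that cover counting error only; with 1 library per age there is no test.

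**Figure D4:**
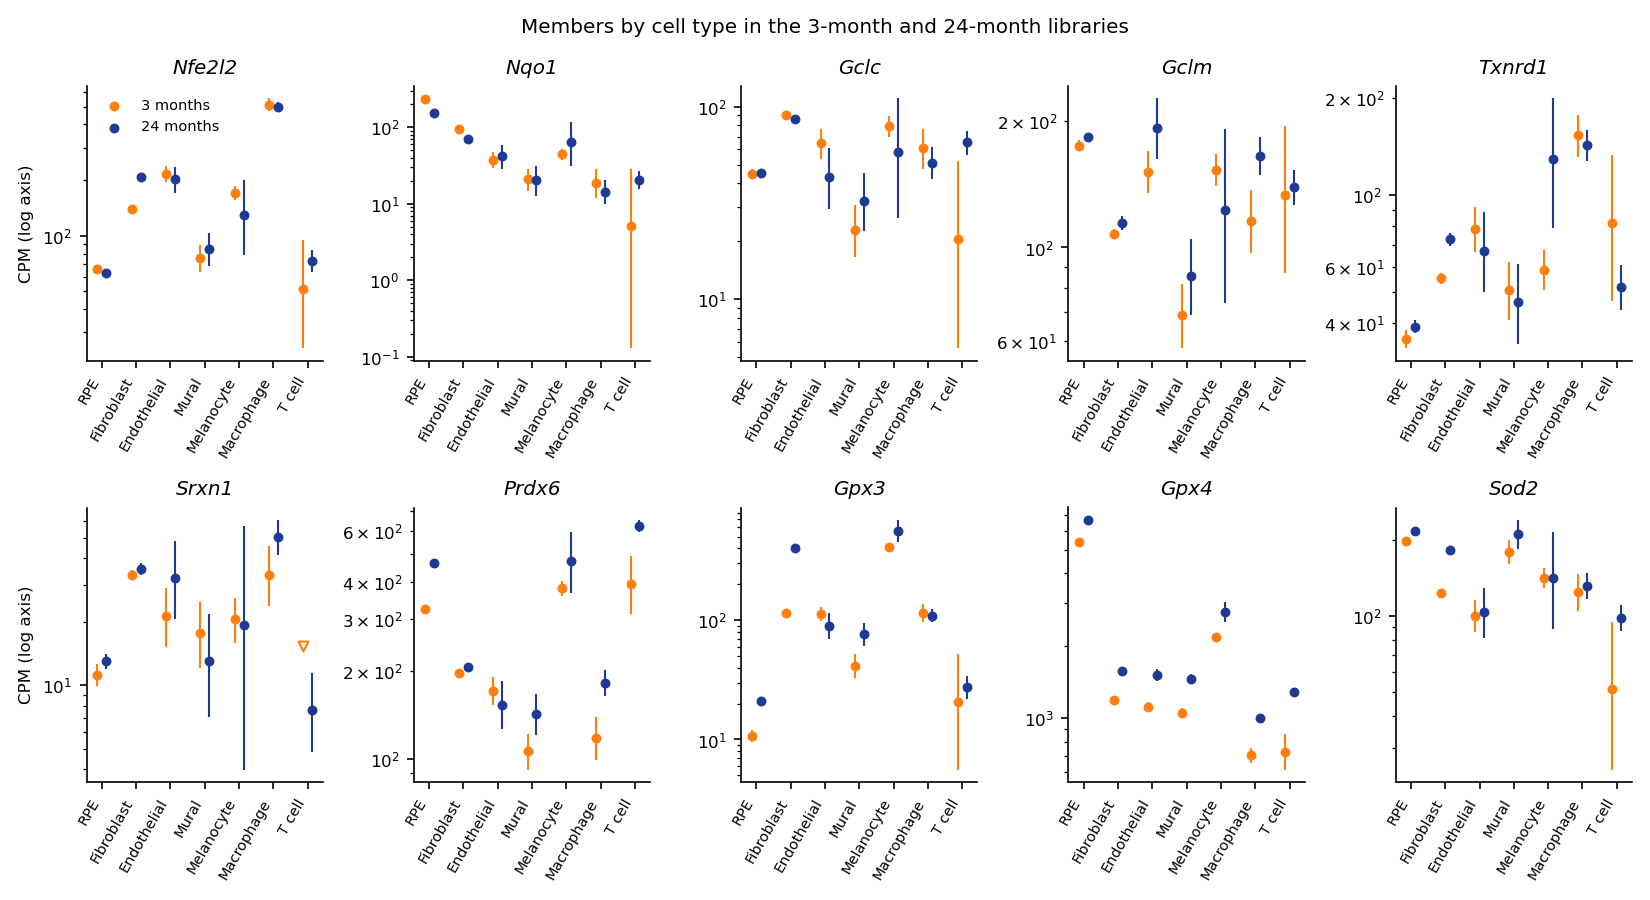
CPM of the 10 members by cell type on log axes, with 95% counting intervals, in the 3-month library (orange) and the 24-month library (blue), where the open triangle marks the level of 3 UMIs for Srxn1 in young T cell-like cells, which had 0. Gpx4 and Nqo1 are highest in RPE cells in both libraries, and Nfe2l2 is highest in macrophage-like cells.

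Among the 6 types with at least 200 cells in a library, RPE cells were the highest for 4 of 10 members at 3 months, against 17.4% of 14441 genes with at least 50 UMIs over those types, and for 3 of 10 at 24 months, against 20.2% of 14324. Gpx4 was at 5369 CPM (5340 to 5397) in RPE cells at 3 months and 6632 (6608 to 6656) at 24 months. The next type, melanocyte-like cells, had 2171 and 2762 CPM, and macrophage-like cells had 702 and 1003. Were UMIs shed by RPE cells to keep their ratio to the 6 RPE markers, they would give fibroblast-like cells 197 and 500 CPM of Gpx4, against 1189 and 1576 measured.

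Nqo1 was at 232 CPM (226 to 238) in RPE cells at 3 months and 156 (152 to 159) at 24 months. Fibroblast-like cells came next, at 95.1 and 71.4, and macrophage-like cells had 18.8 and 14.4. RPE cells were 2.44 and 2.18 times above fibroblast-like cells. Sod2 in RPE cells, at 198 and 216 CPM, differed from mural-like cells, at 179 and 211, by less than the counting error (log2 ratios of 0.14, from -0.02 to 0.31, and 0.04, from -0.15 to 0.23). Gclm, at 175 and 184 CPM in RPE cells, was highest there at 3 months and level with endothelial-like cells at 24 months, where those had 192.

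Prdx6 was at 325 and 465 CPM in RPE cells, above fibroblast-like, endothelial-like, mural-like and macrophage-like cells in both libraries. Melanocyte-like cells had 381 and 471 CPM and T cell-like cells 395 and 624. The 24-month melanocyte-like class holds 37 cells, with immunoglobulin genes also among its leading genes, and the 3-month T cell-like class 45.

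In both libraries Nfe2l2 and Txnrd1, and at 3 months Srxn1 and Gclc, were lower in RPE cells than in most other types. Nfe2l2 was at 66.3 and 62.5 CPM there, at 139 and 207 in fibroblast-like cells and at 510.5 and 499 in macrophage-like cells, 7.71 and 7.99 times the RPE level. Txnrd1 was at 35.8 and 39.0 CPM in RPE cells and 153 and 143 in macrophage-like cells. Srxn1 was at 11.2 and 13.03 CPM in RPE cells and 33.3 and 35.6 in fibroblast-like cells, and T cell-like cells at 3 months had 0 UMIs, with an upper limit of 18.9 CPM. At 24 months Srxn1 in RPE cells was level with mural-like cells, at 13.01, and above T cell-like cells, at 7.65.
Gclc was at 44.6 and 45.1 CPM in RPE cells, below fibroblast-like cells, at 90.4 and 86.0, and above mural-like cells, at 23.0 and 32.5. At 24 months its log2 ratio to mural-like cells, 0.47, had an interval from -0.01 to 1.00. The ratios to endothelial-like and macrophage-like cells then, 0.07 and -0.18, had intervals from -0.43 to 0.62 and from -0.46 to 0.11.

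Gpx3 was low in RPE cells and in T cell-like cells (20.5 and 27.3 CPM). It was at 10.7 and 21.1 CPM in RPE cells, at 114 and 402 in fibroblast-like cells and at 413 and 562 in melanocyte-like cells. At the ratio of Gpx3 to fibroblast markers found in fibroblast-like cells, the fibroblast marker UMIs of RPE cells would come with 5.04 and 16.5 CPM of Gpx3. No such estimate is given for melanocyte markers. Of these, Pmel was at 152 and 20.7 CPM in RPE cells and at 9280 and 4421 in melanocyte-like cells. The Gpx3 level also went with the strictness of the RPE limit: in cells with 4 to 6% of UMIs in the RPE markers Gpx3 was at 45.3 and 64.1 CPM, and in those with 10% or more at 3.44 and 6.31. The 1736 and 1721 cells just outside the limit, with 2 to 4%, had 170 and 198 CPM.

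Between the 24-month and the 3-month library, 3 of 10 members in RPE cells differed by a log2 ratio of at least 0.5, against 6.57% of 11445 genes with at least 50 UMIs in both. Prdx6 and Gpx3 were higher (2.79% of genes were) and Nqo1 was lower (3.78% were). The median log2 ratio was 0.13 over the members and -0.06 over those genes.

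Nqo1 in RPE cells had 6058 UMIs at 3 months, or 232 CPM, and 6842 at 24 months, or 156 CPM. The log2 ratio was -0.58 (-0.63 to -0.53). In fibroblast-like cells it was also lower, at -0.41 (-0.50 to -0.33). Prdx6 was at 325 and 465 CPM, which gives a log2 ratio of 0.52 (0.48 to 0.55), and in fibroblast-like cells the ratio was 0.06 (0.01 to 0.11).
Gpx3 had 280 UMIs at 3 months, or 10.7 CPM, and 928 at 24 months, or 21.1 CPM, which gives a log2 ratio of 0.98 (0.78 to 1.17), and the fibroblast-linked levels given above, 5.04 and 16.5 CPM, moved the same way. Their part in the ratio was not tested. With RPE cells taken from 2% on, the Gpx3 ratio was 0.39, and without RPE cells that held 3 or more markers of another type it was -0.31 (-0.88 to 0.31), a filter that left 373 of the 1886 cells at 3 months and 3617 of the 5419 at 24 months. Of the RPE cells, 1455 and 1052 held 3 or more melanocyte markers. With melanocyte genes allowed, 1441 and 4367 cells stayed, and Nqo1, Prdx6 and Gpx3 had log2 ratios of -0.59, 0.51 and 0.92 (0.63 to 1.21 for Gpx3).

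The other members changed by less in RPE cells. Gpx4 was higher by a log2 ratio of 0.30 (0.30 to 0.31), Srxn1 by 0.21 (0.01 to 0.42), Txnrd1 by 0.13 (0.01 to 0.24), Sod2 by 0.13 (0.08 to 0.18) and Gclm by 0.07 (0.02 to 0.12). Gclc and Nfe2l2, at 0.02 and -0.08, had intervals that held 0. The RPE cells of the 3-month library were deeper, and in cells thinned to 1000 UMIs Gclc passed the limit too, at 0.52 (0.06 to 1.00), so that 4 of 10 did. The share of all genes passing in thinned cells is not given, so no result is read from this count.

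In fibroblast-like cells 3 members were higher by at least 0.5 and 0 were lower, against 15.8% of 11982 genes, 8.30% higher and 7.50% lower. Gpx3 had a log2 ratio of 1.82 (1.77 to 1.87), Nfe2l2 of 0.58 (0.53 to 0.63), from 139 to 207 CPM, and Sod2 of 0.56 (0.50 to 0.62), from 123 to 182. These cells are mixed: within those with UMIs of Comp or Fmod the Gpx3 ratio was 2.64, of Alkal2 or Coch 1.43, of Ccl11 0.67, and with none of these 2.03. The Nfe2l2 ratio ran from 0.19 to 0.85 over the same subsets and that of Sod2 from 0.21 to 0.66.

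In macrophage-like cells 3 of the 8 members with enough UMIs were higher by at least 0.5 and 0 were lower, against 20.3% of 3383 genes, 5.11% higher and 15.2% lower: Prdx6 by 0.62 (0.34 to 0.91), Gclm by 0.52 (0.23 to 0.81) and Gpx4 by 0.51 (0.40 to 0.63). In mural-like cells Gpx3 alone of 7 passed, at 0.87 (0.41 to 1.34), against 11.2% of 3332 genes, 5.40% higher and 5.79% lower. It was at 41.7 and 76.2 CPM there. At the ratio found in fibroblast-like cells, the fibroblast marker UMIs of mural-like cells would come with 9.55 and 34.4 CPM of Gpx3, and their part was not tested. In endothelial-like cells 0 of 7 passed, against 13.9% of 2606 genes, 7.71% higher and 6.18% lower. Gpx4 was higher at 24 months in all 5 types compared, with log2 ratios from 0.30 in RPE cells to 0.51 in macrophage-like cells. At the ratio found in RPE cells, the RPE marker UMIs of fibroblast-like cells would come with 197 and 500 CPM of Gpx4 at 3 and 24 months. The same estimate gave 249.5 and 580 CPM in endothelial-like, 226 and 579 in mural-like and 215 and 404 in macrophage-like cells. These moved the same way as the measured levels, and their part in the ratios was not tested.

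Few genes of the lists passed a log2 ratio of 0.5 in RPE cells between the ages, where 6.57% of all genes did. Of 11 NRF2 regulators, Maff alone passed, at 0.58 (0.36 to 0.81, from 8.58 to 12.9 CPM), with Mafk and Nfe2l1 at 0.33 and -0.29. At the ratio found in fibroblast-like cells, the fibroblast marker UMIs of RPE cells would come with 8.30 and 8.16 CPM of Maff at 3 and 24 months. Of the 15 other NRF2 targets compared, 0 passed, and the widest were Osgin1 at 0.39, Tkt at -0.34 and Ugdh at -0.30. Of 20 other peroxide and superoxide enzymes, 0 passed, with Gpx8 at -0.44, Glrx at 0.41 and Sod3 at 0.34. In the list of 7 genes of selenoprotein synthesis 0 did, with the selenium carrier Selenop at -0.41, Secisbp2 at -0.22 and Trnau1ap at -0.11. Selenop was at 137 and 103 CPM in RPE cells at 3 and 24 months and at 1204 and 1375 in fibroblast-like cells. Of the 7 NF-kB response genes, Tnfaip3 alone passed, at 1.16 (from 7.17 to 16.0 CPM, 0.92 to 1.40), with Nfkb1 at 0.22 and Nfkb2 at 0.18. The 5 medians lay between -0.10 and 0.11.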

How the data were processed

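Per the labels, the authors deposited TPM values for the bulk libraries, made with STAR and RSEM (2.7.3a and 2.7.10b are both listed for STAR), and unnormalized UMI counts from Cell Ranger 6.0.1 on mm10. All per-sample columns were mapped, leaving 0. TPM keeps no depth, so bulk depth is unknown, and the strand setting is not given in the sources used here although TXNRD1 and NQO1 have antisense partners.

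The members and lists were chosen with earlier results of these data known. TPM was analysed as log2(TPM + 1) with limma 3.58.1 in R 4.3.3 (trend on, robust off, Benjamini-Hochberg adjustment over all genes tested). Genes needed a TPM of at least 1 in 3 of 9 or 2 of 4 libraries, and the 9 ARPE-19 libraries shared 1 fit. Fold changes on this scale understate those of low genes. Replicates held different values and were kept as separate samples. The fit was tested on simulated data.

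A barcode counted as a cell from 200 genes on, with mitochondrial UMIs at 10% or less and hemoglobin at 0. Doublets were not removed. A cell was classed when its share in the RPE markers was under 2%, at least 3 of a type's 6 markers had a UMI and no other type had as many. UMIs were summed by type in Python 3.11.15 with pandas 2.3.3 and scipy 1.17.1, ratio intervals are exact conditional ones, and genes needed 50 UMIs in both libraries. Named beside the members are up to 3 genes of each list with the largest change past the threshold and no overlap of replicates, or, in RPE cells, with the largest ratio. Alternatives were other pseudocounts, filters, limma settings, scaling, the replicate number as a block, each library left out, and other cell filters.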

Additional observations from a re-analysis of the deposited data

How the results depend on the processing

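Counts of members called stayed within 1.5 times the reported count under every alternative run: 7 to 8 on 1.5 kPa against plastic, 6 to 7 with against without YAP-HA, 5 to 7 with YAP-HA against plastic and 2 to 4 in RPE cells with age. For TRULI the count was 0 throughout, which with 2 libraries a group says nothing of stability. A mouse group left with 1 library was assumed to vary like the other group. Rescaling TPM by the median of ratios changed no count of members. Replicate numbers did not pair the samples (correlations of same-numbered ARPE-19 libraries of -0.12 to 0.09, and 0.06 in mice); with the number as a block 8, 6, 5 and 0 members were called, and the pairing term lost GCLM with YAP-HA against plastic (adjusted p of 0.0614). TXNRD1 on 1.5 kPa against plastic missed the threshold without a filter on low TPM (0.092) and with the trend off (0.0527), as did GCLM with YAP-HA against plastic without the filter (0.0853), while PRDX6 passed there when the 2 groups were fitted alone (0.0384). The cause was not tested. Gpx3 in RPE cells went to -0.31, with an interval that held 0, without cells holding markers of another type, and stayed higher with melanocyte genes allowed. Fibroblast subsets and the filter that allows melanocyte genes were chosen after seeing the data. For TRULI 0 to 9 genes of all tested were called over the alternatives. What limits these results is 1 library per age, 2 per mouse group and unknown bulk depth.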
